A study of Oncorhynchus mykiss with 15 samples.

Results

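Of 64494 genes in a count table of rainbow trout adipocytes, 39 were low in subcutaneous fat and higher in both visceral and intramuscular fat. They were picked from measured levels, in CPM (counts scaled to a common library size, here with TMM factors), over 15 libraries. A gene was taken when its means in visceral and in intramuscular fat were both at least 5 CPM and within 4-fold of each other. In addition, all 5 subcutaneous libraries had to lie below all 10 other libraries, and the smaller of the 2 other means had to exceed 1.5 times the subcutaneous mean. Genes that stood clearly highest in visceral or in intramuscular fat were to be left out, and this removed none. Because these values chose the genes, their differences between depots are described here and not tested.

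The libraries come from adult rainbow trout (Oncorhynchus mykiss) that received no treatment, were kept at 15 °C and were fasted for 24 h. Mature adipocytes were released with collagenase from visceral fat (VAT), subcutaneous fat (SAT) and intramuscular fat (IMAT), and 5 RNA libraries were made for each depot. The labels give neither strain nor sex, nor which fish gave which library, so the spread between libraries may include shared fish or pooled material. The question set by the design is how adipocytes of the depots differ under ordinary rearing.

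An adipocyte stores triglyceride in a large lipid droplet and releases fatty acids when other tissues need fuel. Visceral fat lies around the gut and is a main lipid store of trout, subcutaneous fat lies beneath the skin, and intramuscular fat lies between the muscle fibres and contributes to the fat content of the fillet. In mammals, fat depots differ in their developmental origin and in the genes their adipocytes use. The table and the reference used here do not pair the Ensembl identifiers with gene names, so no function can be given for any of the 39 genes. For the same reason markers of adipocytes and of other cells could not be examined, and in such bulk samples fewer cells of a type and less RNA per cell cannot be told apart.

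Library totals ran from 5872244 to 9414223 counts in VAT, from 4203986 to 7243006 in SAT and from 2413951 to 4199494 in IMAT. A floor of 3 counts equalled 0.28 to 0.466 CPM in VAT, 0.448 to 0.569 CPM in SAT and 1.09 to 1.44 CPM in IMAT, and these limits cover counting error only. VAT replicate 5 and SAT replicates 4 and 5 had the most genes detected, with 43239, 46175 and 44738, against 36958 to 41316 in the other VAT and SAT libraries. VAT replicate 5 also had the largest total of all libraries, 9414223 counts. The log2 levels of VAT replicate 5 correlated across genes with those of the other VAT libraries at a mean r of 0.859, where the other 4 VAT libraries had 0.919 to 0.931. SAT replicate 5 had 0.886 with the other SAT libraries, where the others had 0.914 to 0.926, and IMAT replicate 2 had 0.776 with the other IMAT libraries, where the others had 0.824 to 0.849. IMAT replicate 5 had a mean r of 0.8405 with the SAT libraries, beside 0.837 with the other IMAT libraries. The other IMAT libraries had 0.652 to 0.814 with SAT. These values describe the libraries, since genes are not replicates. IMAT replicate 2 also had a TMM factor of 0.501, against 0.894 to 1.29 in all other libraries, which raises its CPM relative to its share of counts. Some of the results below are therefore also given without some of those libraries or without that scaling.

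Few genes were low in SAT alone. With the same rule turned to the other depots, without the leave-out step, 459 genes were low in VAT alone and 229 in IMAT alone, against 39 in SAT. A similar rule was turned upward, to ask for 1 depot above both others. That rule asked 5 CPM of the high depot alone and put the 4-fold limit on the other depots. Its counts are therefore not directly comparable with those of the low rule. The upward rule gave 66 genes high in SAT alone, 257 in VAT and 868 in IMAT. With all libraries SAT thus had the fewest genes in both directions. Without VAT replicate 5 the upward rule gave 83 genes in SAT, 546 in VAT and 932 in IMAT. With SAT replicates 4 and 5 left out as well it gave 590, 623 and 1144, so SAT was then close to VAT. SAT was not rare as the lowest depot by its mean. Among the 14843 genes with VAT and IMAT means of 5 CPM or more and within 4-fold of each other, SAT had the lowest mean in 4443, or 29.9%, where the matching shares were 28.1% for VAT and 51.0% for IMAT. The differences were smaller, since the SAT mean lay over 1.5-fold below both others in 479 genes (3.23%), the VAT mean in 1191 (7.74%) and the IMAT mean in 2041 (13.2%). The step that asked all libraries to be apart then kept 8.14% of these genes for SAT, 38.5% for VAT and 11.2% for IMAT. Over all genes tested, the 5 SAT libraries lay below all others in 54 genes (0.21%).

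The counts of genes low in 1 depot rested on a few libraries. Without VAT replicate 5 the count was 67 for SAT, 538 for VAT and 379 for IMAT. With SAT replicates 4 and 5 left out as well, 272 genes were low in SAT, 622 in VAT and 1104 in IMAT, so SAT remained the depot with the fewest in both cases. Leaving libraries out also makes it easier for depots to be apart, since fewer libraries have to be separated. The comparison between depots is not given without IMAT replicate 2 or 5, nor on plain library totals. With the leave-out step, leaving out 1 library gave 66 genes without VAT replicate 5, 67 without SAT replicate 4, 85 without SAT replicate 5 and 41 to 54 without any other. With CPM on plain library totals instead of TMM scaling, a choice made after the values had been seen, 25 genes met the rule and 19 of them were among the 39.

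**Figure D1:**
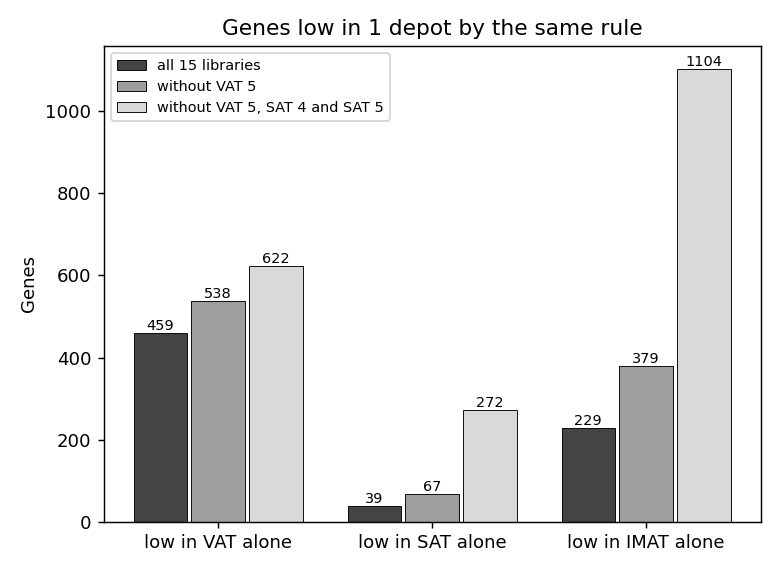
Genes low in VAT, in SAT or in IMAT alone by the same rule without the leave-out step (y axis, number of genes), with all 15 libraries, without VAT replicate 5, and also without replicates 4 and 5 of SAT. SAT has the fewest genes in each set of libraries, with 39, 67 and 272.

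The 39 genes were reduced in SAT, not absent from it. The smaller of the VAT and IMAT means exceeded the SAT mean by 1.52-fold to 9.73-fold, with a median of 2.78-fold, and by over 2-fold in 29 genes and over 4-fold in 11. The median ratio of means was 3.05 for VAT to SAT (1.52 to 25.9) and 3.35 for IMAT to SAT (1.602 to 21.7). Every gene had counts in every SAT library. The lowest was 3 counts, 2 genes had a SAT library at 3 counts or fewer, and the sum over the SAT libraries ran from 44 to 3579 counts with a median of 189. The SAT mean was under 5 CPM in 13 of the 39 genes. CPM is not divided by transcript length, so levels of different genes are not compared.

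**Figure D2:**
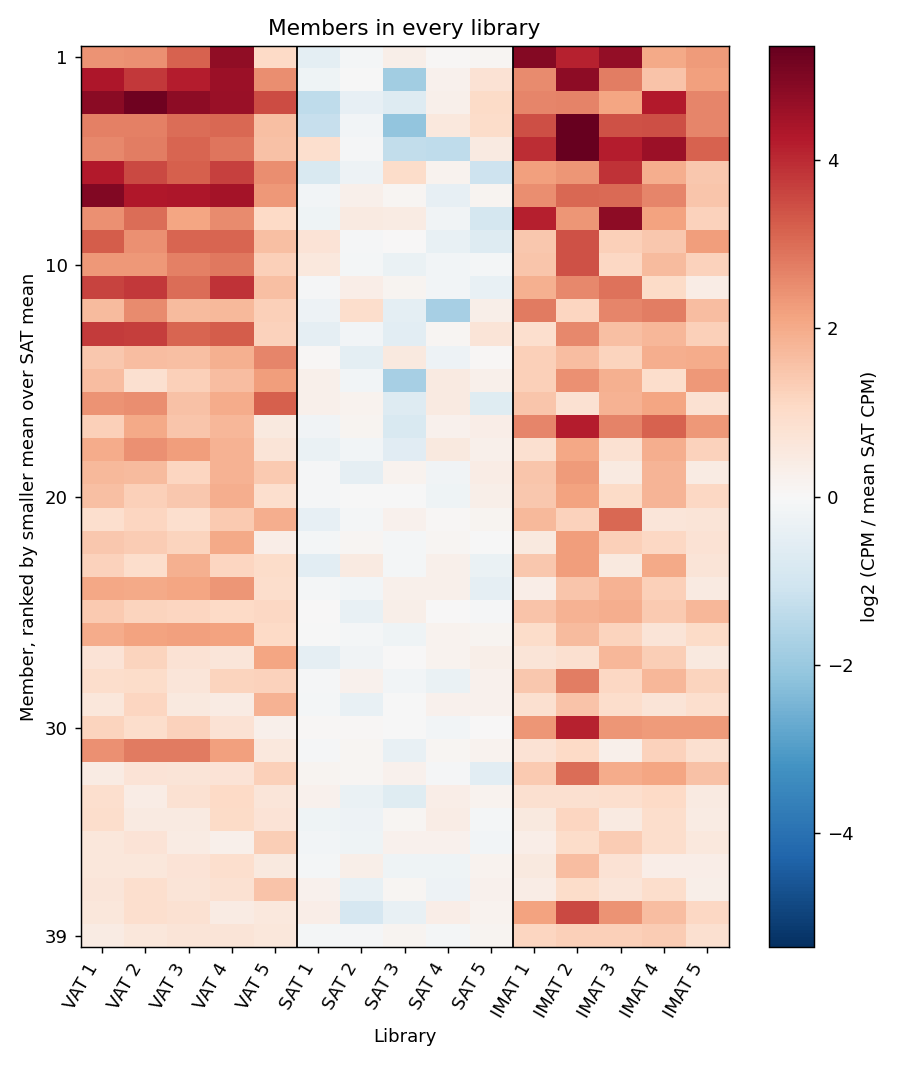
Level of each of the 39 genes (rows, ranked from the largest to the smallest ratio of the smaller other mean to the SAT mean) in each library (columns), as log2 of CPM over the mean SAT CPM of that gene. VAT and IMAT libraries are above the SAT mean throughout, as the rule demands, and VAT replicate 5 is the palest VAT column in the 13 top rows.

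The gap between the depots was often narrow. The lowest VAT or IMAT library exceeded the highest SAT library by 1.01-fold to 2.38-fold, with a median of 1.17-fold. It was under 1.1-fold in 11 genes and over 2-fold in 2. Some narrow gaps rested on few IMAT counts and are imprecise. The narrowest was set by IMAT replicate 3 with 19 counts, and a gap of 1.04-fold by IMAT replicate 5 with 11 counts. Others rested on more, such as 178 counts in IMAT replicate 5 for a gap of 1.05-fold. The genes just inside the limit of 1.5 had ratios of 1.524, 1.6 and 1.602. Another 5 genes met every clause except this limit, with ratios of 1.27 to 1.47, so few genes lay close below it. The clause that mattered most was the separation of libraries, since 440 further genes met all others. Among these, the libraries would be apart for 26 if VAT replicate 5 alone were ignored, for 25 without SAT replicate 4 and for 24 without SAT replicate 5. The number was 13 without IMAT replicate 5 and 1 to 8 without any other library. IMAT replicate 5 was the lowest IMAT library in 17 of the 39 genes (43.6%). Among the 15252 other genes with VAT and IMAT means of at least 5 CPM this share was 18.3%.

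The following identifiers were taken by size of ratio, the first and second for VAT to SAT and then the first and second for IMAT to SAT. ENSOMYG00000028190 had the largest ratio of VAT to SAT, 25.9, and a ratio of IMAT to SAT of 8.45. Its level in VAT was 90.2, 119, 88.9, 79.4 and 35.5 CPM in replicates 1 to 5 (mean 82.5 ± 30.1 SD, n = 5). In SAT it was 1.26, 2.36, 1.98, 3.88 and 6.45 CPM (mean 3.19 ± 2.06). In IMAT it was 19.6, 20.1, 13.97, 61.4 and 19.5 CPM (mean 26.9 ± 19.4). The 2 SAT libraries with most genes detected were its highest SAT libraries, and VAT and IMAT overlapped only through VAT replicate 5 and IMAT replicate 4. Without IMAT replicate 4 it did not meet the rule, since the VAT and IMAT means were then over 4-fold apart. The log2 ratios to SAT were 4.70 for VAT and 2.52 for IMAT, so SAT stayed far below both. Without VAT replicate 5 and both of those SAT libraries its log2 ratio to SAT moved from 4.70 to 5.67 for VAT and from 3.08 to 3.84 for IMAT, and after thinning to equal depth the latter was 3.67.

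ENSOMYG00000042292 followed, with 19.6-fold more in VAT than in SAT and 6.198-fold more in IMAT. The VAT libraries had 195, 123, 125, 136 and 31.4 CPM (mean 122 ± 58.8 SD, n = 5). The SAT libraries lay close together at 5.65, 7.46, 6.70, 4.62 and 6.83 CPM (mean 6.25 ± 1.12). The IMAT libraries had 35.2, 52.2, 50.7, 37.9 and 17.7 CPM (mean 38.7 ± 13.97). VAT replicate 5 fell within the IMAT range and the other 4 VAT libraries above it. The lowest library outside SAT still exceeded the highest SAT library 2.38-fold, the widest gap among the 39 genes. It did not meet the rule without VAT replicate 5 or on plain library totals. Without VAT replicate 5, the lowest VAT library (123 CPM) exceeded 1.5 times the highest IMAT library (52.2 CPM), so the leave-out step removed it. On plain totals the log2 ratio to SAT stayed at 4.29 for VAT and was 2.27 in place of 2.63 for IMAT. The VAT and IMAT means were then over 4-fold apart.

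ENSOMYG00000012752 had the largest ratio of IMAT to SAT, 21.7, and a ratio of VAT to SAT of 6.31. Its IMAT libraries had 23.6, 62.3, 28.4, 36.6 and 13.7 CPM (mean 32.9 ± 18.4 SD, n = 5). Its VAT libraries had 8.94, 10.1, 13.05, 11.2 and 4.48 CPM (mean 9.55 ± 3.21). In SAT it had 2.82, 1.45, 0.609, 0.597 and 2.09 CPM (mean 1.51 ± 0.963). The lowest SAT values came from 4 counts each, so they are imprecise. All IMAT libraries lay above all VAT libraries, and all VAT libraries above all SAT libraries. At equal depth, with every library thinned at random to the smallest total, it did not meet the rule.

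ENSOMYG00000046838 had the largest ratio when the smaller of both is taken, with 9.73 for VAT to SAT and 16.6 for IMAT to SAT. The VAT libraries had 8.32, 8.55, 14.04, 42.5 and 3.26 CPM (mean 15.3 ± 15.7 SD, n = 5). The IMAT libraries had 47.6, 27.8, 40.97, 6.53 and 7.60 CPM (mean 26.1 ± 18.8). The SAT libraries had 1.098, 1.45, 1.98, 1.64 and 1.71 CPM (mean 1.58 ± 0.327), from 7 to 13 counts each. VAT and IMAT thus varied widely and overlapped, while SAT was low and even. Without VAT replicate 4 the log2 ratio of VAT to SAT was 2.41 in place of 3.28.

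ENSOMYG00000067929, named after its values had been seen, held most counts of the 39 genes. Its level was 645, 926, 499.6, 679 and 243 CPM in the VAT libraries (mean 599 ± 251 SD, n = 5). It was 99.2, 165, 157, 103 and 60.5 CPM in SAT (mean 117 ± 43.7). In IMAT it was 2084, 600.0, 3255, 516 and 274 CPM (mean 1346 ± 1283). IMAT replicates 1 and 3 stood far above the other IMAT libraries, which lay within the VAT range. Without IMAT replicate 3 the log2 ratio of IMAT to SAT was 2.89 in place of 3.52. This gene took 13.4 to 33.3% of the counts of the 39 genes in SAT, 20.9 to 42.6% in VAT and 25.5 to 74.4% in IMAT.

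**Figure D3:**
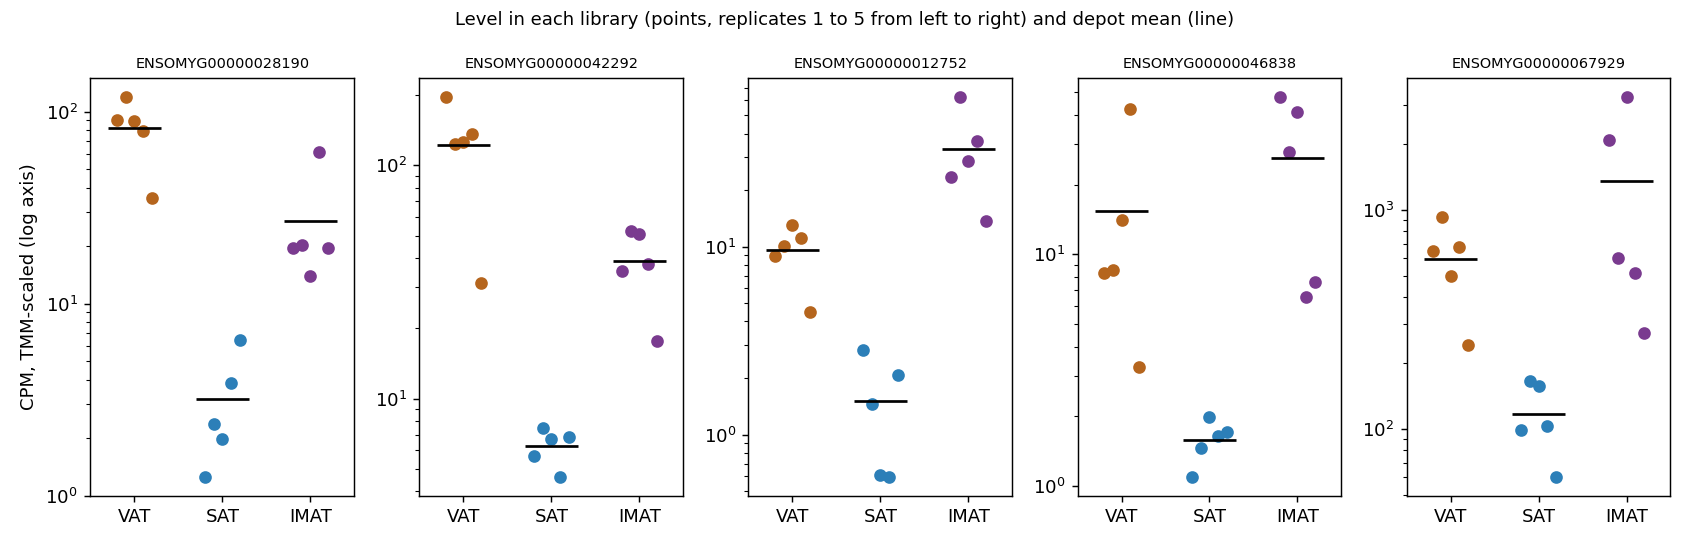
CPM on a log axis of the 5 genes named in the text, with 1 point for each library in the order of replicates 1 to 5 within VAT, SAT and IMAT, and a line at the mean of each depot. All SAT points lie below all others, and VAT replicate 5 is the lowest VAT point in all 5 genes.

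Together the 39 genes held 0.0441 to 0.0568% of all counts in the SAT libraries (mean 0.05002% ± 0.0056 SD, n = 5), a range narrower than in the other depots. They held 0.132 to 0.238% in VAT (0.192% ± 0.0388) and 0.117 to 0.388% in IMAT (0.212% ± 0.120). The wide range in IMAT went with ENSOMYG00000067929. Without that gene the shares were 0.0868 to 0.103% in IMAT, 0.104 to 0.137% in VAT and 0.0316 to 0.0492% in SAT. The SAT range was then not the narrowest, since it was slightly wider than that of IMAT. Relative to its mean, SAT then varied most, with 0.0380% ± 0.00765 SD. The values were 0.128% ± 0.0133 in VAT and 0.0928% ± 0.00793 in IMAT. The coefficient of variation within a depot had a median over the 39 genes of 22.1% in SAT, 34.7% in VAT and 46.9% in IMAT. Over the 15252 other genes with VAT and IMAT means of at least 5 CPM the medians were 26.3%, 26.2% and 35.9%. The rule favours genes with little spread in SAT, so these values are a description only.

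With TMM scaling, neither VAT nor IMAT was the higher depot over the whole group. The mean was higher in VAT for 19 genes and in IMAT for 20, with log2 ratios of IMAT to VAT from -1.66 to 1.98 and a median of 0.01. The means lay within 2-fold of each other in 27 genes. The libraries of VAT and IMAT overlapped in 32 genes, all IMAT libraries lay above all VAT libraries in 7 and the reverse held in 0. Over all genes tested these arrangements held in 9.72% and 5.24%. The rule limited this difference, so nothing is read from the counts. They also depend on the scaling. On plain library totals the log2 ratio of IMAT to SAT was lower in all 5 named genes. For ENSOMYG00000012752 it was 3.98 in place of 4.44, where that of VAT to SAT was 2.65 in place of 2.66.

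**Figure D4:**
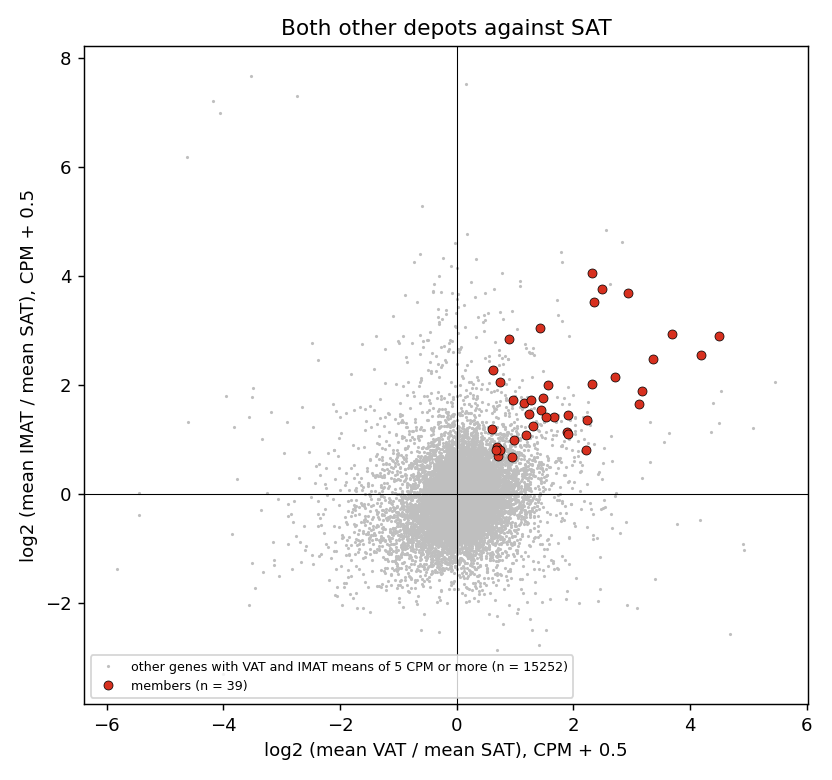
Ratio of mean VAT to mean SAT (x axis) against ratio of mean IMAT to mean SAT (y axis), both as log2 with 0.5 CPM added to each mean, for the 39 genes (red) and the 15252 other genes with VAT and IMAT means of at least 5 CPM (grey). The 39 genes spread on both sides of the diagonal in the upper right, and some grey points among them are genes whose libraries overlapped between depots.

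VAT replicate 5 was the lowest VAT library in 22 of the 39 genes and the highest in 10. All 13 genes with the largest ratios were among the 22, and so were all 11 genes over 4-fold below both other depots. In those 11 genes VAT replicate 5 had a median of 0.377 times the mean of the other VAT libraries, and in the other 28 genes 0.904 times. The extremes among the 39 were 0.178 and 2.40 times. VAT replicate 5 was also the lowest VAT library in 57.4% of the 319 other genes of at least 5 CPM that edgeR called higher in VAT than in SAT, and in 37.3% of all 15252 others. The share among the 39 genes was 56.4%. It was the highest VAT library in 25.6% of the 39 genes, 28.2% of the 319 and 34.1% of the 15252. This library was thus often at an extreme of VAT in other genes too.

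The 22 genes lowest in VAT replicate 5 had a median ratio of 5.18 for VAT to SAT and 4.83 for IMAT to SAT. The 10 genes highest in it had medians of 2.16 and 2.99. The remaining 7 had medians of 1.72 and 2.80. These sets were formed after the values had been seen and were not tested, and the ratios to SAT include VAT replicate 5 itself. The rule also asks VAT replicate 5 to lie above all SAT libraries. A gene far lower in it than in the other VAT libraries therefore needs a large VAT to SAT ratio to meet the rule. The larger VAT ratios of the 22 genes are thus partly set by the rule. Whether the library differs by its cells, its fish or its preparation was not tested.

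**Figure D5:**
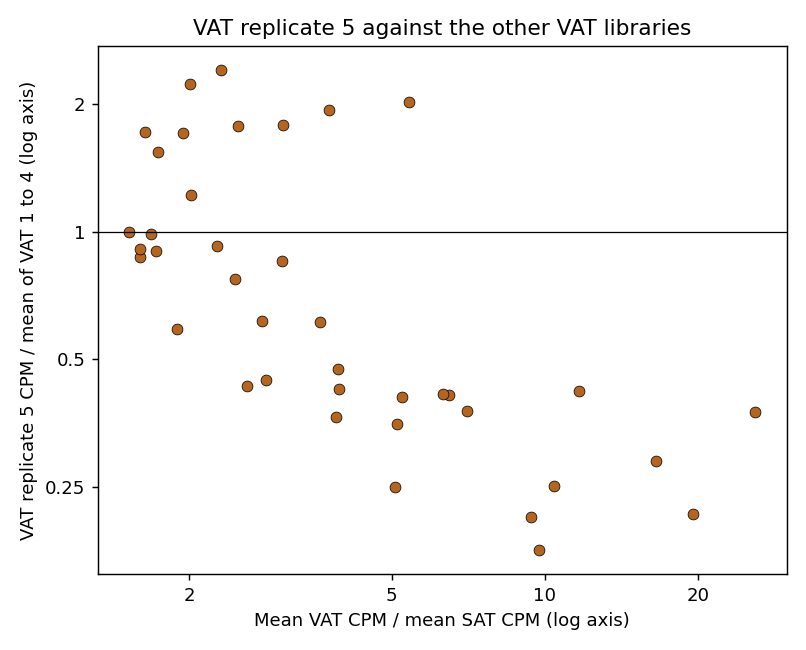
For each of the 39 genes, the ratio of mean VAT to mean SAT CPM (x axis, log) against the level in VAT replicate 5 over the mean of VAT replicates 1 to 4 (y axis, log), with a line at 1. Genes with a VAT to SAT ratio above 6 all lie below 0.5 on the y axis, and those with smaller ratios lie on both sides of the line. The rule asks VAT replicate 5 to exceed all SAT libraries, which limits how low genes with small ratios can lie.

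IMAT replicate 2 was the highest IMAT library in 23 of the 39 genes (59.0%), against 25.2% of the 15252 other genes. This order depended on the scaling. On plain library totals it was the highest IMAT library in 9 of the 39 genes and the lowest in 16. On those totals the libraries of SAT still lay below all others in 21 of the 39 genes, the smaller mean exceeded 1.5 times the SAT mean in 34, and the median ratio was 2.30 instead of 2.78. The separation of the remaining 18 genes thus relied on the TMM factors. The matching shares over other genes on plain totals are not given here, so these counts describe the 39 genes only.

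By edgeR's quasi-likelihood test over all 25695 genes with Benjamini-Hochberg adjustment, 32 of the 39 genes were called lower in SAT than in VAT, where 2.37% of all genes were. Of the 39, 36 were called lower in SAT than in IMAT, where 7.35% of all genes were. The median log2 fold changes were 1.61 for VAT against SAT and 1.74 for IMAT against SAT, beside 0.03 and -0.05 over all genes tested. Both comparisons share the SAT libraries and were used to choose the genes, so these counts support nothing. Between IMAT and VAT, 6 of the 39 were called higher in IMAT (13.1% of all genes) and 6 lower (8.12%).

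The test and the rule picked partly different genes. edgeR called 83 genes (0.323%) lower in SAT than in each of the other depots, and 30 of them were among the 39. The 9 genes that met the rule without both calls had ratios of 1.6 to 1.896, and 1 of them had neither call. Of the 53 genes called on both sides that did not meet the rule, 46 had libraries that overlapped between depots, 9 had a mean under 5 CPM in VAT or IMAT, and 9 differed over 4-fold between VAT and IMAT.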

How the data were processed

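The authors deposited raw counts per gene for 15 libraries, 5 for each depot by the sample titles. The submitters' processing notes name Trimmomatic 0.30, STAR 2.5.2b, featureCounts from Subread 1.5.2 and DESeq2 1.6.3. The build, annotation, strand setting and handling of multimapping reads were not given in the sources used here. Salmonids carry many similar gene copies, so counts for near-identical copies are uncertain. Of 64494 identifiers, 0 matched the RefSeq gene table, so gene lists prepared for functions and cell types were not used.

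Genes were kept by filterByExpr (minimum count 10, minimum total 15), which left 25695, and scaled by TMM in edgeR 4.0.16 with R 4.3.3. The rule was applied to the resulting CPM. Depots were compared by edgeR's quasi-likelihood F-test (robust, depot as the only term, all libraries), with Benjamini-Hochberg adjustment and a threshold of 0.05. The test was first run on simulated counts, and the rule was checked only on made-up values without noise. In 30 chi-square comparisons between libraries of the same depot the smallest value per degree of freedom was 6.37, so no pair looked like 1 library deposited again; this does not show that libraries come from separate fish. The p-values measure the spread between these libraries, which may be technical. Alternatives were DESeq2 1.42.0, limma-voom (limma 3.58.1), other scalings, filters, equal depth and libraries left out. The 39 genes and all lists were chosen with earlier results of these data known. With no gene names, the naming rule prints the 2 genes with the largest ratio of VAT to SAT and the 2 with the largest ratio of IMAT to SAT.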

Additional observations from a re-analysis of the deposited data

Results flagged for a closer look

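Within 21 groups of 5 libraries (the 5 named genes, the share of counts and the mean level of the 39 genes, in each depot), 3 held a library far from the others. Chance flags about 1 in 20 groups of independent, normally distributed values. That rate does not apply to genes chosen on these values, and the other genes exceeded it in each depot, as given below. ENSOMYG00000046838 had 42.5 CPM in VAT replicate 4, against 3.26 to 14.04 CPM in the other VAT libraries. ENSOMYG00000028190 had 61.4 CPM in IMAT replicate 4, against 13.97 to 20.1 CPM in the other IMAT libraries. The mean log2 CPM of the 39 genes was 4.19 in VAT replicate 5, against 4.67 to 4.84 in the other VAT libraries.

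Gene by gene, a library stood as far apart in 7 of the 39 genes in VAT, 4 of them through VAT replicate 5, in 11 in IMAT, 8 of them through IMAT replicate 2, and in 1 in SAT. These shares were 17.9%, 28.2% and 2.56%, beside 14.9%, 8.27% and 7.78% of the 15252 other genes with VAT and IMAT means of at least 5 CPM, and the difference was not tested. The levels of IMAT replicate 2 depend on its TMM factor of 0.501.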

How the results depend on the processing

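The number of genes that met the rule ran from 41 to 85 when 1 library was left out. It was 270 without VAT replicate 5 and SAT replicates 4 and 5, 35 of them among the 39, and 25 on library totals without TMM. It was 42 with DESeq2 size factors (37 of the 39 among them), 40 without the count filter (30) and 30 at equal depth (20). Stricter limits kept 29 genes at 2-fold, 33 at 10 CPM and 27 with VAT and IMAT within 2-fold. Of the 39 genes, 13 met the rule in each of 18 settings (other scalings, equal depth and each library left out). The settings without the count filter, without those 3 libraries together and with stricter limits were not among the 18. edgeR called 2090 genes for VAT against SAT, 2716 for IMAT against SAT and 5442 for IMAT against VAT. At equal depth the first was 1387, and without the 3 libraries the second was 4351; the cause was not tested. The share of calls higher in IMAT than in SAT was 69.5%, but 59.1% without the count filter and 53.0% on library totals, where the median log2 fold change of all genes moved from -0.05 to -0.19 and -0.33. For IMAT against VAT, 61.6% of calls were higher in IMAT and 46.5% on library totals. With the replicate number as a block the counts were 2460, 2819 and 5879. Same-numbered libraries deviated together at r over 0.1 in 9 of 15 pairs (-0.13 to 0.53). In most of the 15, a library of the other depot with another number had a higher r. Among same-numbered pairs, the highest r was between VAT replicate 5 and SAT replicate 5. No label says that the numbers mark fish, so they were not taken to pair the libraries, and shared fish were not tested. SAT levels of the 39 genes rest on as few as 3 counts in a library, which limits the largest ratios.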

Other observations

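Without VAT replicate 5 and SAT replicates 4 and 5, 235 genes outside the 39 met the rule. Their smaller mean exceeded 1.5 times the SAT mean in 128 of the 235 genes with all libraries, with a median ratio of 1.56. They were picked by leaving those libraries out, so their values in them are no evidence about the libraries.

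The first principal component of the deviations from the depot mean held 78% of the variance of the 39 genes in VAT, 49.9% in SAT and 45.9% in IMAT, over 5 libraries each. Over the 15252 other genes of at least 5 CPM in VAT and IMAT it held 71.5%, 58.8% and 50.3%. These are descriptions over libraries that share depth and scaling, and the difference was not tested.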
